A study of Mus musculus with 8 samples.

Results

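The p53 death receptors and death effectors are 10 genes that are targets of the transcription factor p53, or signal together with such targets, and that encode death receptors or death effectors outside the Bcl2 family. They were taken by symbol from a table of 22564 genes, in which each of the 10 symbols had 1 row. Their RNA was measured in mouse skin by sequencing of ribosome-depleted total RNA, in 8 libraries. The 4 irradiated libraries came from skin of male C57Bl/6 mice aged 4 weeks, kept specific pathogen free, taken 24 h after a single dose of 35 Gy, given at 750 cGy per min with a 6 MeV electron beam. The 4 nonirradiated libraries came from skin areas of such mice that were left out of the beam. The labels number the libraries within each group, but name no animal and do not state whether a nonirradiated area lay on an irradiated mouse, and p-values here reflect variation among libraries that could be partly technical.

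Ionizing radiation breaks DNA, and p53, stabilized by the damage response, then activates genes that stop the cell cycle, repair DNA or start cell death. Death receptors of the TNF receptor family, such as Fas and Tnfrsf10b, signal from the cell surface through an intracellular death domain, while Apaf1 assembles the apoptosome inside the cell once mitochondria release cytochrome c. Eda2r and Edar bind different splice forms of ectodysplasin A. Edar signals through the adaptor Edaradd to NF-kappaB and is known for the formation of hair, teeth and sweat glands, and Eda2r lacks a death domain.

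Of the 10 genes, 8 had a higher mean level in irradiated skin in FPKM, a unit that scales fragments to transcript length and library depth, and Edaradd and Edar had a lower one. The furthest apart on this scale was Eda2r, at 41.8 ± 18.6 against 6.22 ± 3.19 FPKM (SD, n = 4 each), 6.73 times higher. Phlda3 was 4.91 times, Fas 2.75 times, Aen 2.64 times, Ei24 2.60 times and Tnfrsf10b 2.24 times higher in mean FPKM. Apaf1 was 1.98 times and Perp 1.40 times higher. In limma on log2(FPKM + 1), with p-values adjusted over the 13324 genes whose mean reached 0.5 FPKM, 9 of the 10 were tested and 0 passed an adjusted threshold of 0.05, which 0.248% of all tested genes passed. At an unadjusted p under 0.05 in this fit, 8 of the 9 were higher and 0 lower, where 5.68% of all tested genes were higher and 7.21% lower. That count depended on the fit. In limma without nonirradiated replicate 3 the unadjusted p was 0.104 for Fas, 0.0727 for Tnfrsf10b, 0.136 for Perp and 0.0814 for Apaf1. It stayed under 0.05 there for Eda2r, Ei24, Aen and Phlda3. The limma log2 change was above 0 for 8 of the 9 and for 43.9% of all tested genes. The 9 had a median log2 change of 1.22, and all tested genes one of -0.11. The genes were chosen with earlier results of these data known, so the shares of all genes are no independent test of them. With edgeR's quasi-likelihood test on sequencing reads recovered from the deposited counts, 1 of 9 passed (Eda2r), where 1.08% of all tested genes did. The unadjusted p of that edgeR test was 0.0901 for Fas, 0.0539 for Tnfrsf10b and 0.0684 for Phlda3. It was under 0.05 for Eda2r, Perp, Apaf1, Ei24 and Aen. DESeq2 on the same reads called 3 of 10 (Eda2r, Aen and Apaf1), where it called 4.95% of all genes.

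**Figure D1:**
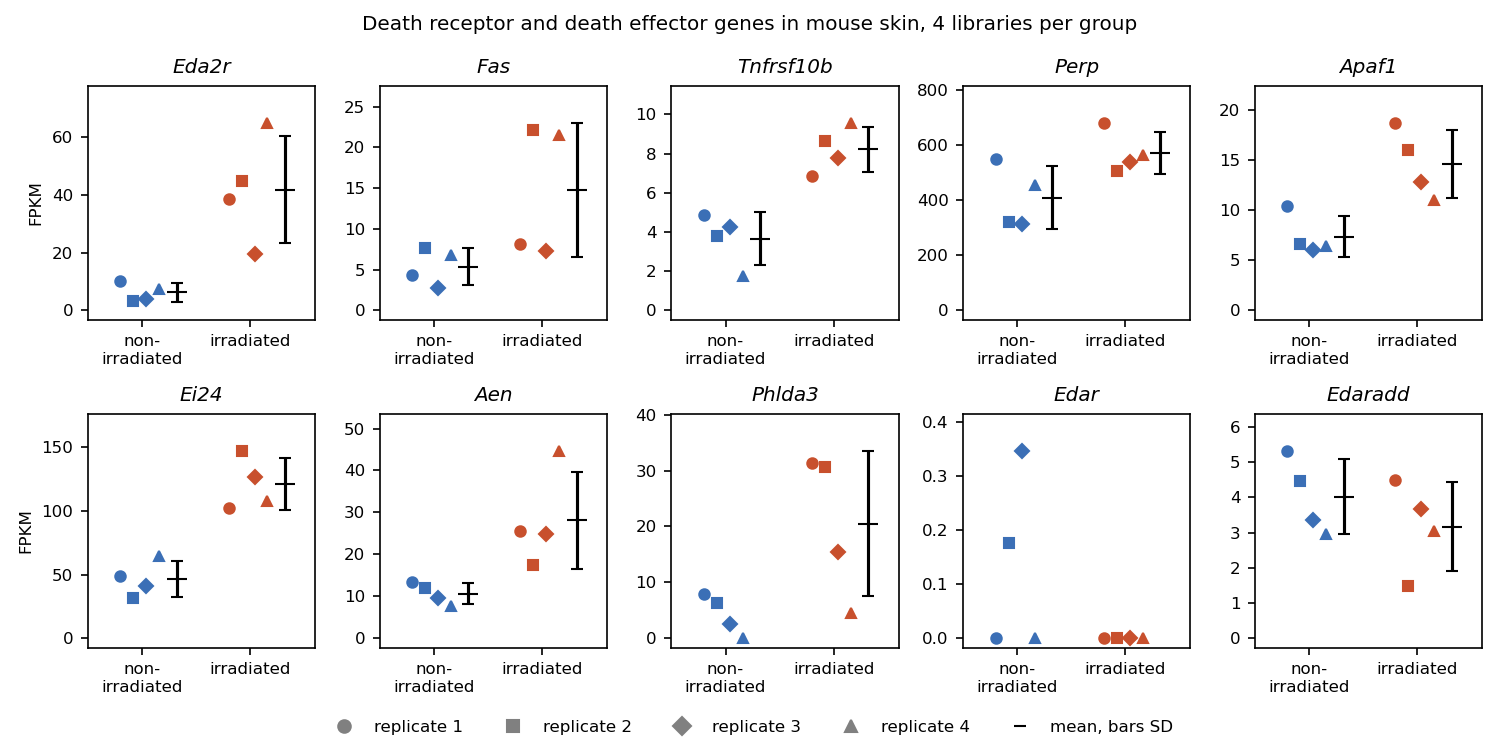
FPKM of each of the 10 genes (linear axes, 1 panel per gene) in the 4 nonirradiated and 4 irradiated libraries; symbols are replicates, the black mark is the group mean and the bars are SD, left out where a library is listed at 0. The groups do not overlap for Eda2r, Tnfrsf10b, Apaf1, Ei24 and Aen.

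The groups did not overlap in FPKM for 5 of the 10 genes, all higher in irradiated skin, as for 3.99% of all tested genes. They were Eda2r, Tnfrsf10b, Apaf1, Ei24 and Aen. In RPM, which here is recovered reads scaled to the library total without regard to gene length, 5 genes did not overlap either, as for 4.3% of all tested genes, and 4 of them were shared: Ei24 overlapped on this scale and Perp did not. By level per length, Perp stood first in both groups and Ei24 second, with no overlap with the next gene. In nonirradiated skin the next in order were Aen, Apaf1, Eda2r, Fas, Phlda3, Edaradd and Tnfrsf10b, each overlapping its neighbour in range, and Edar lay apart below them. In irradiated skin Eda2r came next, overlapping Aen, then came Phlda3, Fas and Apaf1, which overlapped their neighbours, and below them Tnfrsf10b and Edaradd, each apart from the next.

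The 250 bases before the RefSeq start (GRCm38.p6, the assembly of mm10) were searched for the p53 decamer, the repeated element of the p53 response element, whose class of letters reads the same on both strands. A window was at hand for 8 of the 10 genes, and Tnfrsf10b and Perp had none. The decamer occurred in 2 of the 8, Ei24 and Aen, and in 8.2% of 27025 genes with a window. Counted by window it was in 2 of 9, and in 7.13% of 32851 windows of all genes. Shown are these 2 and, for comparison, the windows of Eda2r and Phlda3, the genes with the largest log2 changes in limma with all libraries, on the strand of the gene. They lie at chr9:36797335-36797584 (minus), chr7:78895808-78896057 (plus), chrX:97377210-97377459 (minus) and chr1:135765835-135766084 (plus). Capitals mark the decamer, which begins 10 bases before the start of Ei24 and 121 bases before the more downstream of the 2 RefSeq starts of Aen. The window of its other start had none.
Ei24: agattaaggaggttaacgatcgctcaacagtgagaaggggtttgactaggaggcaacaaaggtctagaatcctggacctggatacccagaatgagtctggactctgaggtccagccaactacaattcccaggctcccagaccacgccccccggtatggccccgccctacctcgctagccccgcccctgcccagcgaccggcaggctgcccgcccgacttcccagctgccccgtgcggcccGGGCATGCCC
Aen: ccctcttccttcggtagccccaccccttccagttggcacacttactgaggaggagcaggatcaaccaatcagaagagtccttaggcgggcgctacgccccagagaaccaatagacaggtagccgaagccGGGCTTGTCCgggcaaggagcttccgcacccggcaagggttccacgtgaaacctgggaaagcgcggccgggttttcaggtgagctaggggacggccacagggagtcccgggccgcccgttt
Eda2r: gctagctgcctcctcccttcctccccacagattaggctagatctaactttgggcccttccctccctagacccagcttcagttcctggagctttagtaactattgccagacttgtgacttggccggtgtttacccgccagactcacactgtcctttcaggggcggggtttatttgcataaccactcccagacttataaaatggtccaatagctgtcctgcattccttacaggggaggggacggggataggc
Phlda3: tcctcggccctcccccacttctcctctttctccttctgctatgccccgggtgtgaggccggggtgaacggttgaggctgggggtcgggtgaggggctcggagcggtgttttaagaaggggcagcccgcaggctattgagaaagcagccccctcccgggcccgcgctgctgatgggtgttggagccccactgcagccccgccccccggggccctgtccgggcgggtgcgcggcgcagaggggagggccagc
A match is a description of letters and not a binding site. The windows of Eda2r and Phlda3 had no such decamer, which says only that these letters are not in this window.

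The libraries carried between 5036285 and 6626658 recovered reads. Searched between 3.5 and 300 reads, the counts of low genes piled up at a number typical of each library. This commonest low read count was between 19.9 and 78.4 in irradiated and between 4.16 and 15.6 in nonirradiated libraries, with no overlap between the groups. The search did not reach below 3.5 reads, so a pile-up nearer to 1 read would not have been found. Reads divided by a library's commonest low read count are called units here, and stand for separate fragments only as an assumption. The units came to between 75708 and 332987 per irradiated and between 385947 and 1338530 per nonirradiated library, so irradiated values rest on fewer units, and the part of this in the differences of the 10 genes was not tested beyond the test on units given below. As a check of the tissue, 6 keratinocyte markers summed to between 1870 and 3410 FPKM in irradiated and between 1370 and 1960 FPKM in nonirradiated libraries, with none of the 6 at 0 throughout a group. The 12 markers of hair matrix and inner root sheath summed to between 453 and 841 against between 1400 and 2010 FPKM. The 14 skeletal muscle markers summed to between 4830 and 7730 FPKM in irradiated and between 1950 and 6140 FPKM in nonirradiated libraries. Of these, 13 had a limma log2 change above 0 and 1 below, Myh4, at a mean of 133.5 FPKM in irradiated and 467.1 FPKM in nonirradiated libraries. The 5 T cell markers summed to at most 3.09 and 10.8 FPKM, with Cd3d and Cd8a at 0 throughout, and 5 endothelial markers to between 41.1 and 87 against between 83.6 and 115 FPKM. The 10 macrophage and neutrophil markers, of which 9 were in the table and Ly6g was at 0 throughout, summed to between 115 and 141 against between 38.8 and 58.3 FPKM. S100a8 alone had a mean of 68.1 FPKM in irradiated and 1.71 FPKM in nonirradiated libraries. Of the 8 tested markers of this list 4 had a limma log2 change above 0 and 4 below, with a median of 0.08. In bulk skin, fewer cells of a type and less RNA per cell cannot be told apart.

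Eda2r (ENSMUSG00000034457, mm10 chromosome X, 97333840 to 97377216, minus strand) is the receptor for a splice form of ectodysplasin A that Edar does not bind, and is also known from skeletal muscle, where it was linked to wasting in mice. In irradiated replicates 1 to 4 it was at 38.5, 44.7, 19.5 and 64.7 FPKM. In nonirradiated replicates 1 to 4 it was at 10.2, 3.25, 4.06 and 7.41 FPKM. Every irradiated library lay above every nonirradiated one, and irradiated replicate 3, the lowest of its group, was still above nonirradiated replicate 1, the highest of the other. Irradiated libraries were higher by 2.56 on the log2 scale (SE 0.45; limma, adjusted p = 0.0566). In RPM the gene was at 184 ± 40.3 against 29.6 ± 10.3 (SD, n = 4 each), and edgeR on these reads put the log2 change at 2.55, adjusted p = 0.00273. On units, of which it had 110 in the irradiated and 85 in the nonirradiated libraries, edgeR put it at 2.67, adjusted p = 1.26e-06. Over all alternatives the adjusted p ran from 2.42e-12 to 0.396.

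Among limma fits the call of Eda2r turned on single libraries: the adjusted p was 0.0359 without irradiated replicate 3 and 0.0412 without nonirradiated replicate 1. Those 2 fits called 0.384% and 0.575% of all genes. Leaving out any other single library gave an adjusted p for Eda2r between 0.0862 and 0.186. Over nonirradiated replicates 1 to 4 the skeletal muscle markers summed to 6140, 1950, 2280 and 2280 FPKM, and over irradiated ones to 7730, 4830, 6140 and 5830 FPKM, so nonirradiated replicate 1 stood among the irradiated libraries. The part of this in the fit without that library was not tested. Eda2r also passed after median ratio scaling and after quantile normalization, each of which called 0.338% of all genes, with edgeR on the rounded estimated counts (1.07%) and with edgeR on reads with no filter (0.96%). With the mean of the muscle markers as a covariate the log2 change of Eda2r was 2.13 and its limma adjusted p was 0.396, a fit in which 0 of all genes passed. Over the 8 libraries, the log2(FPKM + 1) values most like those of Eda2r, among 5579 genes averaging 10 FPKM or more, belonged to Irf2bp2 (Pearson r = 0.99), Tm9sf3 (r = 0.99) and Eif4a2 (r = 0.98). The 8 points hold both groups, so these values describe a shared difference between the groups as much as a likeness within them.

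Edar (ENSMUSG00000003227, chromosome 10, 58600789 to 58675654, minus strand), the death-domain receptor of the same ligand family, was near the limit of detection. It was listed at 0 in all 4 irradiated libraries and in nonirradiated replicates 1 and 4. Nonirradiated replicates 2 and 3 had 0.175 and 0.346 FPKM, from 5 and 12 reads or 1 and 3 units. It did not reach the filter of 0.5 FPKM and so had no value in limma with that filter. Without the filter its adjusted p was 0.681 in limma and 0.402 in edgeR on reads, and DESeq2 gave 0.633, all with a fitted change below 0. A count of 0 in an irradiated library allows up to 3 units, which is between 9.01 and 39.65 RPM, while those 2 nonirradiated libraries had 0.993 and 1.92 RPM. A difference of Edar between the groups was therefore not detectable at this depth. The hair matrix and inner root sheath markers, whose sums are given above, were lower in irradiated libraries for 11 of 11 tested genes, 3 of which fell in limma, and their part in the values of Edar was not tested. The 3 genes most like Edar by the same rule were mt-Atp8 (r = 0.86), mt-Co3 (r = 0.81) and mt-Co2 (r = 0.81), a likeness that rests on the 2 libraries in which Edar was above 0.

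Edaradd (ENSMUSG00000095105, chromosome 13, 12472632 to 12520438, minus strand), the adaptor that links Edar to its downstream kinases, was the only one of the 9 genes past the filter with a limma log2 change below 0. In irradiated replicates 1 to 4 it was at 4.49, 1.48, 3.67 and 3.04 FPKM, and in the nonirradiated ones at 5.31, 4.45, 3.36 and 2.97 FPKM. The groups overlapped over most of their range, and irradiated replicate 2 alone lay below all the others. The limma estimate was -0.30 in log2 (SE 0.50, adjusted p = 0.838), from 24 units in irradiated and 161 in nonirradiated libraries. The ligand gene Eda was at 2.19, 0, 3.72 and 0 FPKM in irradiated and at 2.70, 2.54, 2.47 and 0.871 FPKM in nonirradiated libraries, from 6 units in the irradiated group (limma, adjusted p = 0.718).

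Of the other 10 tested genes of the ectodysplasin receptor list, which names ligand, receptors, adaptors and the NF-kappaB kinases, 3 were above 0 and 7 below, and 0 rose or fell in limma. At an unadjusted p under 0.05 there was 1, higher. Their median log2 change was -0.26. Nfkbia, the inhibitor of NF-kappaB that is itself an NF-kappaB target, was at 52.6 ± 17.0 against 24.0 ± 7.62 FPKM (SD, n = 4 each), 1.11 in log2 with adjusted p = 0.18 by limma. The kinase genes Ikbkb (-0.94) and Map3k7 (0.57) and the NF-kappaB subunit gene Rela (-1.35) did not pass either.

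Fas (ENSMUSG00000024778, chromosome 19, 34290666 to 34327772, plus strand) encodes the receptor for Fas ligand, which recruits Fadd and caspase 8. In irradiated replicates 1 to 4 it was at 8.13, 22.1, 7.30 and 21.5 FPKM. In nonirradiated replicates 1 to 4 it was at 4.40, 7.65, 2.72 and 6.76 FPKM. Irradiated replicates 2 and 4 lay far above every other library, and irradiated replicate 3 lay just below the highest nonirradiated one, so the groups overlapped. Limma put the log2 change at 1.22 (SE 0.51, adjusted p = 0.351). It rested on 15 units in irradiated libraries (95% exact Poisson interval 8.40 to 24.7, which covers counting error only), with 1 unit in replicate 1. The span that the deposited table gives for this row was 12.8 times the length of the annotated gene, so reads of neighbours in that span may have been counted with it.

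Tnfrsf10b (ENSMUSG00000022074, chromosome 14, 69767472 to 69784411, plus strand), the mouse receptor for the death ligand TRAIL, was low but separate. It was at 6.87, 8.65, 7.79 and 9.55 FPKM in irradiated replicates 1 to 4. In the nonirradiated ones it was at 4.87, 3.81, 4.23 and 1.77 FPKM. The irradiated libraries lay close together and all above the nonirradiated ones. In limma the log2 change came to 1.03 (SE 0.46, adjusted p = 0.379), and edgeR on reads gave 1.05 (adjusted p = 0.494, and 0.145 to 0.820 over all alternatives). There were 22 units in irradiated and 60 in nonirradiated libraries.

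The death receptor list holds ligands, receptors, adaptors and brakes of the extrinsic pathway. Of its other 17 tested genes 11 were above 0 and 6 below, with a median log2 change of 0.22, and 0 rose or fell in limma. At an unadjusted p under 0.05, 2 were higher. They were Ripk1, a kinase that decides between survival and death signals, at 31.0 ± 4.76 against 17.9 ± 2.08 FPKM, and the TNF receptor gene Tnfrsf1a, at 42.7 ± 10.8 against 23.4 ± 6.68 FPKM (SD, n = 4 each), with limma adjusted p-values of 0.256 and 0.260. The necroptosis effector Mlkl had a log2 change of 1.15 and the adaptor Tradd one of -0.93, and neither passed. The ligand genes Fasl and Tnf and the receptor gene Tnfrsf25 were listed at 0 in every irradiated library. They had only 15, 18 and 27 reads over all 8 libraries, did not reach the filter and were not tested. As 1 unit was between 19.9 and 78.4 reads in irradiated libraries, these zeros do not show a lower level there.

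Apaf1 (ENSMUSG00000019979, chromosome 10, 90989311 to 91082770, minus strand), the scaffold on which caspase 9 is activated, was at 18.6, 16.0, 12.8 and 11.0 FPKM in irradiated replicates 1 to 4. It was at 10.4, 6.66, 6.00 and 6.43 FPKM in the nonirradiated ones. The groups did not overlap, but irradiated replicate 4 and nonirradiated replicate 1 lay close together. Limma estimated a log2 change of 0.90 (SE 0.37, adjusted p = 0.333). On reads the log2 change was 0.81 in edgeR (adjusted p = 0.173) and 0.85 in DESeq2 (adjusted p = 0.0279), from 61 units in irradiated and 170 in nonirradiated libraries, and the adjusted p ran from 0.0279 to 0.845 over all alternatives. Of the other 13 tested apoptosome and caspase genes 5 were above 0 and 8 below, with a median log2 change of -0.42, and 0 rose or fell in limma. The caspase inhibitor Xiap was at 101 ± 27.0 against 46.3 ± 12.8 FPKM (SD, n = 4 each), with adjusted p = 0.145 by limma. Casp2, the caspase of the PIDDosome, had a log2 change of -1.03, the effector caspase gene Casp6 one of -1.59 and Cycs, which encodes cytochrome c, one of 1.21, and none of them passed.

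Aen (ENSMUSG00000030609, chromosome 7, 78895854 to 78911209, plus strand) encodes a nuclease that degrades DNA in dying cells. It was at 25.4, 17.3, 24.9 and 44.6 FPKM in irradiated replicates 1 to 4. In the nonirradiated ones it was at 13.5, 11.9, 9.52 and 7.70 FPKM. Irradiated replicate 4 lay far above the rest of its group, and the lowest irradiated library lay above the highest nonirradiated one. By limma the log2 difference was 1.27 (SE 0.36, adjusted p = 0.162). On recovered reads it was 0.99 in edgeR (adjusted p = 0.10) and 1.04 in DESeq2 (adjusted p = 0.00416), and on units 0.98 in edgeR (adjusted p = 0.0289), from 56 against 142 units. Its adjusted p over all alternatives ran from 0.00416 to 0.700. Its printed promoter window holds the decamer. In RPM it was at 90.7 ± 19.0 against 43.3 ± 3.60 (SD, n = 4 each).

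Ei24 (ENSMUSG00000062762, chromosome 9, 36779159 to 36797393, minus strand), which encodes a membrane protein of the endoplasmic reticulum, was at 102, 147, 127 and 108 FPKM in irradiated replicates 1 to 4. It was at 48.8, 31.7, 40.9 and 64.8 FPKM in the nonirradiated ones. All irradiated libraries lay well above the nonirradiated ones on this scale. Limma estimated the log2 change at 1.39 (SE 0.26, adjusted p = 0.0644). In RPM the same libraries were at 237, 183, 210 and 99.9 against 129, 99.7, 89.9 and 124. On that scale irradiated replicate 4 fell among the nonirradiated libraries. The log2 change was 0.66 in edgeR on reads (adjusted p = 0.350) and 0.79 on units (adjusted p = 0.0282), so the size of the difference moved by more than 1.5 times between FPKM and reads. The adjusted p ran from 0.0282 to 0.393 over all alternatives. The annotated antisense gene Gm26787 overlaps Ei24 by 3519 bp, and whether counting used strand is not given in the sources used here, so reads of both cannot be told apart. The span that the table gives for the row of Ei24 was 1.615 times the length of the annotated gene.

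**Figure D2:**
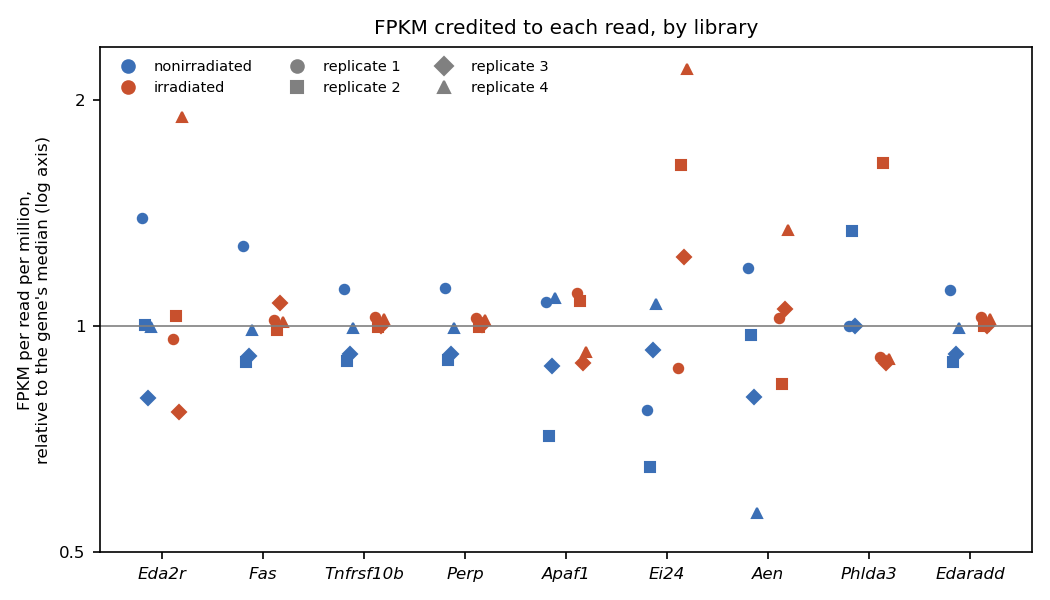
FPKM divided by RPM in each library, relative to the gene's own median over the libraries (log axis), for the 9 tested genes; colours are groups and symbols replicates. Tnfrsf10b, Perp and Edaradd stay near 1, and Ei24 spreads most, with irradiated replicate 4 highest.

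The conversion from reads to FPKM differed between libraries for some genes and not for others. The ratio of FPKM to RPM varied 1.25 times over the libraries for Tnfrsf10b, Perp and Edaradd. For Ei24 it varied 3.38 times, from 0.318 in nonirradiated replicate 2 to 1.08 in irradiated replicate 4. It varied 2.47 times for Eda2r, 2.38 times for Aen, 1.85 times for Phlda3 and 1.55 times for Apaf1, so 5 of the 10 genes varied by more than 1.5 times. For these 5 a difference in FPKM holds both a difference in reads and a difference in the conversion. The highest conversion of Eda2r was in irradiated replicate 4, the library with its highest FPKM, at a ratio of 0.368.

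Phlda3 (ENSMUSG00000041801, chromosome 1, 135766119 to 135769136, plus strand) encodes a small protein that competes with the kinase AKT for membrane lipids and so restrains its survival signal. It was at 31.3, 30.7, 15.4 and 4.42 FPKM in irradiated replicates 1 to 4. In the nonirradiated ones it was at 7.91, 6.25, 2.50 and 0 FPKM. Irradiated replicates 1, 2 and 3 lay above every nonirradiated library, and irradiated replicate 4 lay among them. Its log2 change in limma was 2.16 (SE 0.80, adjusted p = 0.286). Without nonirradiated replicate 4, the library listed at 0, it was 1.51 (adjusted p = 0.472), below that of Ei24 in the same fit (1.56). It was 1.27 with the muscle markers as a covariate and 3.08 with a pseudocount of 0.1, and the adjusted p ran from 0.154 to 0.836 over all alternatives. It rested on 21 units in irradiated libraries (95% exact Poisson interval 13.0 to 32.1), 1 of them in replicate 4, and 20 in nonirradiated ones. Of the other 5 tested genes of the PHLDA and AKT list 4 were above 0 and 1 below, with a median log2 change of 0.24, and 0 rose or fell in limma, or had an unadjusted p under 0.05. The AKT kinase genes Akt2 and Akt1 had log2 changes of 0.64 and 0.24, and neither passed.

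Perp (ENSMUSG00000019851, chromosome 10, 18845020 to 18857073, plus strand), a membrane protein that p53 induces in dying cells and that desmosomes of the epidermis need, was the most abundant of the 10. It was at 679, 505, 540 and 564 FPKM in irradiated replicates 1 to 4. In the nonirradiated ones it was at 550, 323, 313 and 454 FPKM. Nonirradiated replicate 1 lay within the irradiated range, so the groups overlapped. In limma the difference was 0.51 in log2 (SE 0.23, adjusted p = 0.378). It was 0.04 after quantile normalization (adjusted p = 0.919) and 0.13 with the muscle markers as a covariate (adjusted p = 0.934, the highest of all alternatives, of which the lowest was 0.069). With 913 and 3200 units its counting error relative to its level was the smallest of the 10 genes. Among the other 11 desmosome genes, all tested, 6 were above 0 and 5 below, with a median of 0.10, and 0 rose or fell in limma. The basal cadherins Dsg3 (log2 change 0.83, limma adjusted p = 0.110) and Dsc3 (0.48, adjusted p = 0.331) had an unadjusted p under 0.05, while the plaque genes Dsp (0.15) and Pkp3 (0.39) did not.

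**Figure D3:**
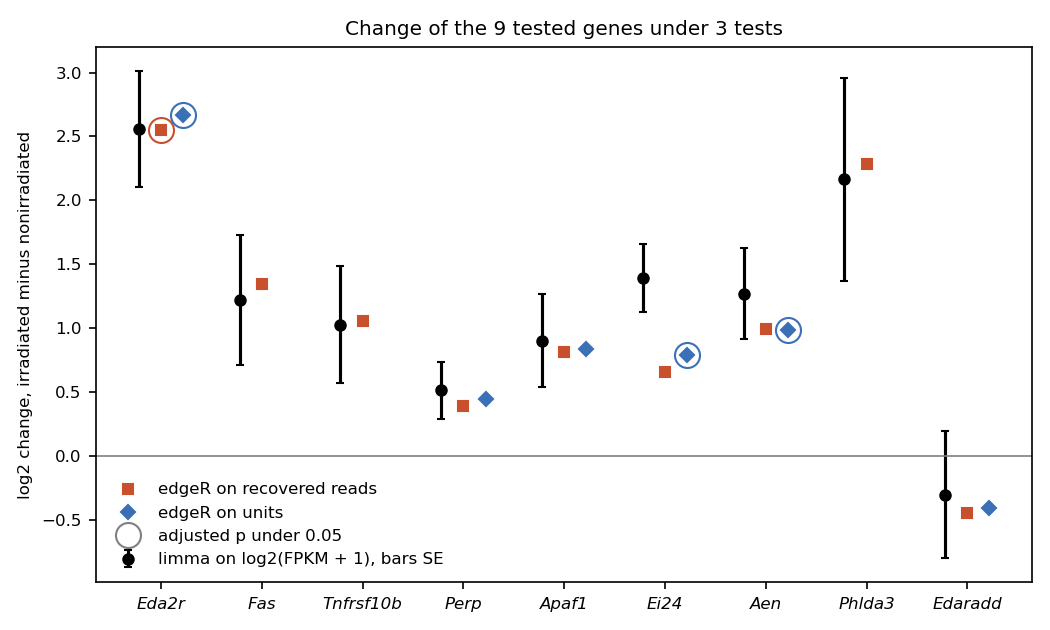
Log2 change of the 9 tested genes (irradiated minus nonirradiated) in limma on log2(FPKM + 1) with SE bars, in edgeR on recovered reads and in edgeR on units; rings mark an adjusted p under 0.05. Eda2r is ringed on reads and on units, Ei24 and Aen on units, and Fas, Tnfrsf10b and Phlda3 could not be tested on units.

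On units, edgeR could test 6 of the 10 genes and called 3 of them higher (Eda2r, Aen and Ei24), where 8.97% of the 5856 tested genes were called. Apaf1 (log2 change 0.84, adjusted p = 0.0574) and Perp (0.44, adjusted p = 0.069) did not pass. Fas, Tnfrsf10b, Phlda3 and Edar had too few units to be tested.

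**Figure D4:**
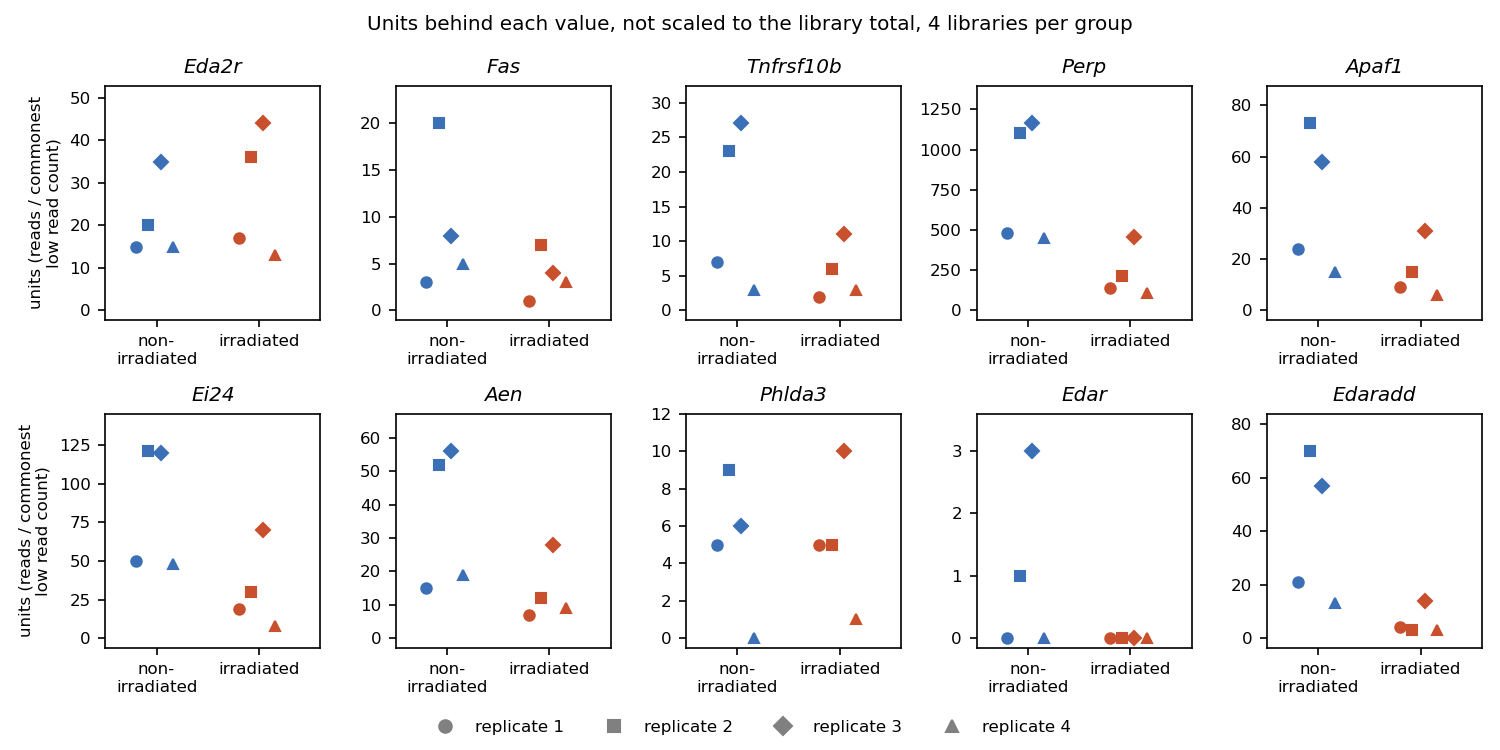
Units of each gene (recovered reads over the library's own commonest low read count, not scaled to the library total) in the 8 libraries; symbols are replicates. Fas, Tnfrsf10b and Phlda3 have at most 11 units in any irradiated library, and Edar has 0.

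Among 25 other p53 targets, 24 were tested, of which 18 were above 0 and 6 below, with a median log2 change of 0.49. In limma 1 rose, Ccng1, a cyclin G gene, and 0 fell, and 9 were higher and 0 lower at an unadjusted p under 0.05. Ccng1 was at 204, 220, 187 and 222 FPKM in irradiated replicates 1 to 4 and between 47.8 and 73.5 FPKM in nonirradiated libraries. The next by p were Trp53inp1, a p53 cofactor (log2 change 1.25), Mdm2, the ubiquitin ligase that degrades p53 (1.03), Cdkn1a, the cell cycle inhibitor p21 (1.14) and Pmaip1, the BH3-only protein Noxa (1.63), with limma adjusted p-values between 0.0566 and 0.159. The gene of p53 itself, Trp53, was at 17.6, 0.775, 15.1 and 0 FPKM in irradiated and at 18.6, 18.6, 17.5 and 11.3 FPKM in nonirradiated libraries. In RPM it was at 18.4 ± 21.8 against 24.5 ± 18.8 (SD, n = 4 each), and the groups overlapped on both scales. It rested on 12 and 102 units, which are not scaled to the library total.

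**Figure D5:**
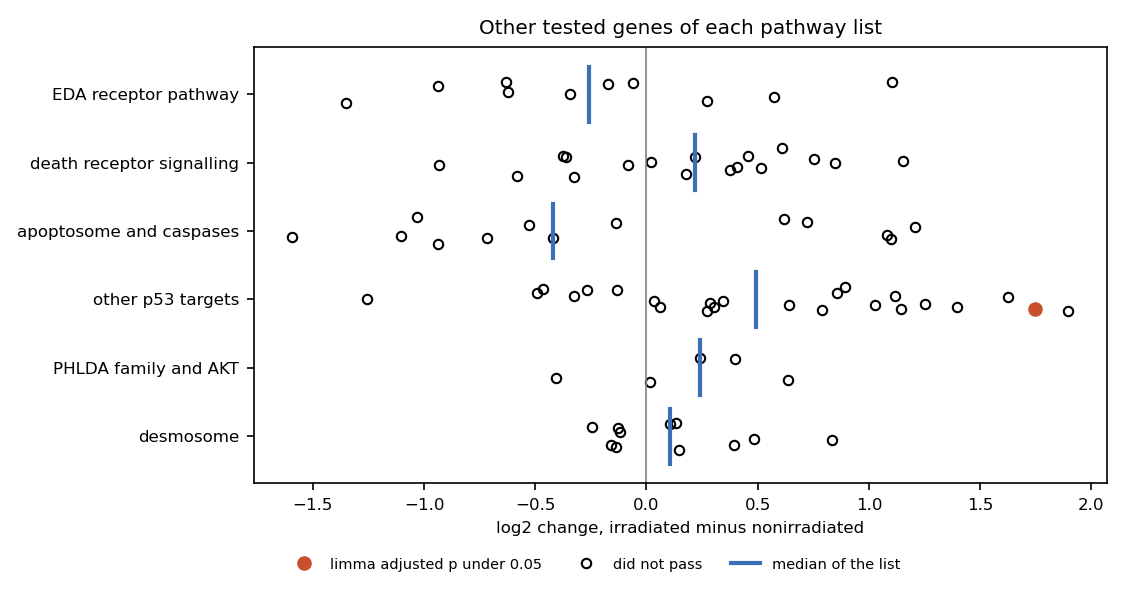
Log2 change in limma (irradiated minus nonirradiated) of the other tested genes of each pathway list, without the 10 genes; filled points had an adjusted p under 0.05 and blue bars are list medians. Ccng1 is the only filled point.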

How the data were processed

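RNA of 4 irradiated and 4 nonirradiated skin libraries was analysed from 1 deposited table of 22565 rows, of which 1 was empty. Per the file headers, the authors deposited FPKM values and estimated counts. The submitters' processing notes list HISAT2 2.0.4, mm10, cutadapt 1.9.3, Cuffdiff and Cufflinks without saying what each did. Neither the annotation nor the use of strand is given there. The table holds raw counts in no column, so FPKM was tested with limma 3.58.1 (R 4.3.3) on log2(FPKM + 1), with trend and robust moderation, for genes whose mean reached 0.5 FPKM. Fold changes on that scale understate low genes. P-values were adjusted by Benjamini-Hochberg over all tested genes, at 0.05.

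The deposited estimated counts were mostly whole multiples of a step per library (0.871 to 1.10). Between 92.6% and 96.3% of values below 2000 steps lay within 0.02 of a whole number. Rounded multiples are the recovered reads, tested with edgeR 4.0.16 (TMM) and DESeq2 1.42.0. The commonest low read count is the peak of genes per read between 3.5 and 300 reads, smoothed at 0.15 on the natural log scale. Limma, edgeR and DESeq2 were each run on simulated reads that had no pile-up at a low read count. That run therefore does not show how they behave on these libraries. The fits on units, with the muscle covariate and with the replicate block were not simulated. The correlation of deviations between libraries of the same number lay between -0.013 and 0.09, and between those of different numbers between -0.088 and 0.078. Values this small do not decide whether libraries of the same number share a mouse, and the main test did not pair them.

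Positions come from GENCODE M21 (mm10). The 10 genes are all described. Of each list, called genes and up to 4 others by smallest p are named, besides Trp53, Cdkn1a, Mdm2, Ccng1 and Eda, and 3 genes most like Eda2r and Edar. Some genes that this rule names are not reported here. The 10 genes and the lists were chosen with earlier results of these data known.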

Additional observations from a re-analysis of the deposited data

Results flagged for a closer look

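Of 19 groups of 4 values of the 10 genes, 1 held a value far from the rest by Dixon's criterion, where chance flags about 1 in 20 groups. Apaf1 in nonirradiated replicate 1 was at 10.39 FPKM, while replicates 2, 3 and 4 of that group were at 6.66, 6.00 and 6.43 FPKM. In FPKM the same library was the highest of its group for 7 of the 10 genes (Eda2r, Tnfrsf10b, Perp, Apaf1, Aen, Phlda3 and Edaradd). In RPM it was still the highest for Perp, Apaf1 and Phlda3. On that scale replicate 4 was the highest for Eda2r and Aen, replicate 3 for Tnfrsf10b and replicate 2 for Edaradd. Apaf1 was at 62.0, 60.0, 43.6 and 37.9 RPM in nonirradiated replicates 1 to 4, where replicate 1 did not stand apart.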

How the results depend on the processing

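The count of genes called over the whole table, 33, was 16 with a replicate block, 131 with edgeR on rounded estimated counts, 133 with edgeR on recovered reads, 151 on those reads with no filter, 525 with edgeR on units and 705 with DESeq2. It was 9 without irradiated replicates 1 and 4 and 0 with the muscle covariate. Leaving out 1 library gave from 4 (without nonirradiated replicate 2 or 3) to 76 (without nonirradiated replicate 1), and 11, 20 and 51 without nonirradiated replicate 4 and irradiated replicates 1 and 3. The cause was not tested. Whether the numbers pair the libraries is not known, and with the replicate block the limma adjusted p of Eda2r was 0.0807.

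None of 186 values of the 9 tested genes under these settings changed sign, and 13 passed the threshold where limma on FPKM did not: 9 of Eda2r, 2 of Aen and 1 each of Apaf1 and Ei24. The settings refit the same libraries or part of them, so these values are not independent. The changed limma filters and the replicate block returned the main log2 change and could not change its sign. After quantile normalization Perp was at 0.0445 and Edaradd at -0.0348, both near 0. Besides those given, Eda2r passed after median ratio scaling (2.44, adjusted p = 0.0427) and quantile normalization (2.57, adjusted p = 0.0401). Over single left-out libraries its log2 change ran from 2.31 to 2.87. With the muscle covariate the unadjusted limma p was under 0.05 for Eda2r, Fas and Ei24. It was 0.237 for Tnfrsf10b, 0.622 for Perp, 0.304 for Apaf1, 0.0663 for Aen and 0.263 for Phlda3. Units limit the low genes: Edar, Fas, Tnfrsf10b and Phlda3 had at most 22 units each in the irradiated libraries.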
